A study of Homo sapiens with 12 samples.

Results

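Doxycycline was added, or not, to SH2 cells, an ALDH-positive leukaemia line that carries an inducible short hairpin RNA (shRNA) against IGF2BP1, and the RNA of both states was compared within 4 independent sets. The 8 libraries titled H2, without doxycycline or with it in sets 1 to 4, were taken from the 12 libraries of the series by their titles, giving 4 untreated and 4 treated libraries paired by set number. All cells were 697(EU3), an established human B-cell precursor leukaemia line, sorted at the start for high aldehyde dehydrogenase activity with ALDEFLUOR, a fluorescent substrate of these enzymes. The shRNA comes with a green fluorescent reporter that doxycycline switches on, and treated SH2 cells were sorted a second time for the reporter before RNA was isolated. Each set began with its own sort of ALDH-positive cells and its own doxycycline treatment, per the design text. Neither the labels nor the protocols give a dose or length of treatment. The other 4 libraries, used below for reference, came from cells described as the control for doxycycline, untreated and treated in sets 2 and 4; whether they hold the scrambled hairpin of the protocol is left unsaid in the labels. SH2 is a single hairpin in a single line. Within this comparison the agent, the knockdown, any other action of the hairpin and the second sort cannot be told apart.

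IGF2BP1 is an RNA-binding protein of the developing embryo that binds messenger RNAs in the cytoplasm, protects many of them from decay and affects their translation. It is silent in most adult tissues and returns in some cancers, including leukaemias. The series title names HOXB4, MYB and ALDH1A1, which encode a pair of transcription factors of blood stem and progenitor cells and an aldehyde dehydrogenase, beside IGF2BP1.

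Libraries were made with a 3′ tag method, so each gene was counted near its poly(A) end. The SH2 libraries held 2528057 to 3370952 reads in genes and 15847 to 17439 genes with a count. B-lineage markers summed to 1601 to 3244 CPM (a gene's reads scaled to a common library size) in untreated and 1411 to 3313 CPM in treated libraries, with 10 of 10 markers found. Myeloid markers (8 of 10 found) stayed at 1.68 to 8.35 CPM over the 8 libraries and erythroid markers (2 of 8 found) at 0.337 CPM or less. T-cell markers summed to 59.4 to 141 CPM without and 63.7 to 142 CPM with doxycycline, with 3 of the 10 at no count, among them TRBC1, and CD3G the highest. Stromal markers (4 of 6 found) summed to 67.4 to 347 CPM and 29.3 to 317 CPM, nearly all of it VIM, which blood cells also express.

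The treated library of set 4 stood apart. On the first principal component, which held 45.4% of the variance of the 8 libraries, it lay at 76.7, while the other 7 lay between -47.9 and 23.4. Its median correlation with the other SH2 libraries was 0.856, against 0.891 to 0.936 for the rest. In set 4, 1549 genes were at least 2-fold lower and 1202 at least 2-fold higher with doxycycline, against 287 to 477 and 264 to 292 in the other sets. With sums of squares pooled over genes, differences between sets held 63.4% of the variance (3 degrees of freedom). Doxycycline held 13.0% (1 degree of freedom) and the remainder 23.7% (3 degrees of freedom). These shares are not scaled to their degrees of freedom. Calls that its removal changes are given with the results they touch.

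**Figure D1:**
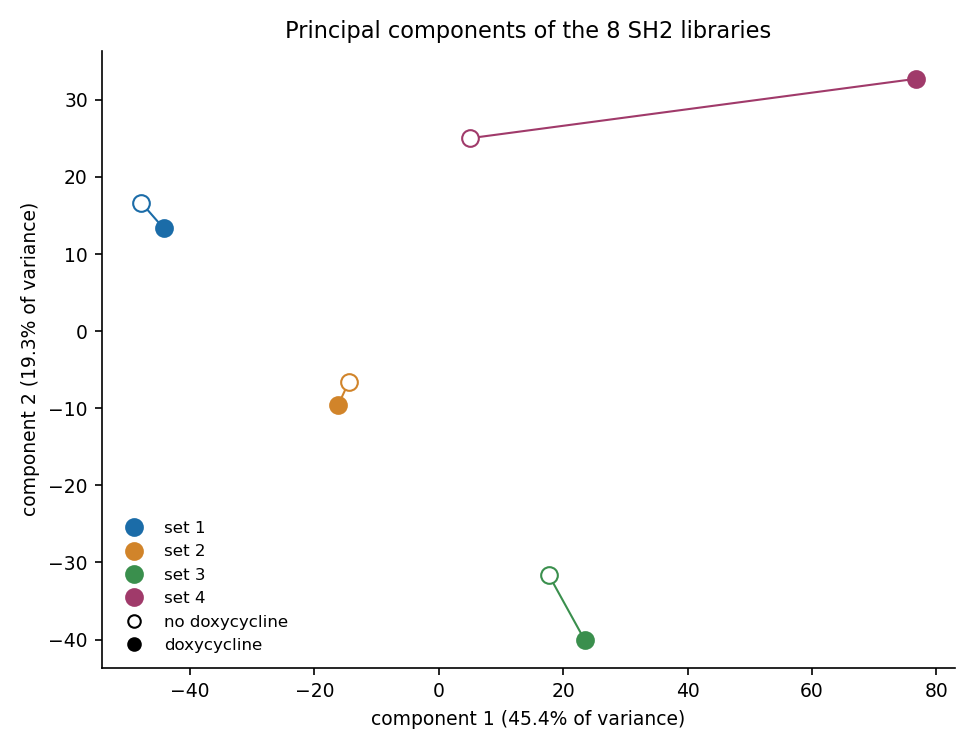
Principal components of log2 CPM in the 8 SH2 libraries, with component 1 on the horizontal axis (45.4% of the variance) and component 2 on the vertical axis (19.3%); open circles are untreated, filled circles treated, and a line joins the libraries of a set. The treated library of set 4 lies alone at the right, and the sets differ more than the treatments.

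The targeted gene was lower with doxycycline in 4 of 4 sets. IGF2BP1 (chr17:48997412-49055650, plus strand, GRCh38) was at 21.7, 30.5, 39.2 and 32.9 CPM in untreated sets 1 to 4 and at 6.28, 14.8, 25.0 and 16.2 CPM in the treated ones. Within every set the treated value was the lower, while the groups overlapped because treated set 3 exceeded untreated set 1. The paired log2 fold change was -1.07 ± 0.25 (SE of the edgeR fit, n = 4 pairs), a 2.10-fold lower level. The adjusted p was 0.232 by edgeR's quasi-likelihood test. Here and below this SE draws on the variance of all genes and is not the spread of the 4 ratios. Without set 4 the value was -1.05 ± 0.25 and passed, with an adjusted p of 0.0168. The control cells held almost none of this transcript, at 1.42 and 0.961 CPM in set 2 and 0 and 0.382 CPM in set 4, so they give no measure of how doxycycline alone moves it. In bulk RNA, fewer cells with a transcript and less of it per cell cannot be told apart.

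Of the other genes in the title and family, none passed the test. MYB was at 652, 254, 161 and 387 CPM without and 342, 279, 283 and 103 CPM with doxycycline, lower in sets 1 and 4 and higher in sets 2 and 3 (log2 fold change -0.46 ± 0.39, adjusted p = 0.687, edgeR). Without set 4 its log2 fold change was 0.0026. ALDH1A1 was at 22.1, 16.3, 1.30 and 3.92 CPM and then 14.7, 9.87, 1.65 and 1.35 CPM, lower in sets 1, 2 and 4 (-0.67 ± 0.36, adjusted p = 0.500). Both genes varied more between sets than with treatment. HOXB4 was too low to test, with 3, 2, 3 and 3 reads in untreated and 0, 0, 0 and 1 in treated libraries. Its pooled ratio of untreated over treated was 9.93 (exact 95% interval 1.44 to 427, counting error only). In control cells HOXB4 had 75 and 63 reads in set 2 and 32 and 78 in set 4, more than in any SH2 library. The paralogue IGF2BP3 held its level in sets 1 to 3, at 27.1, 38.3 and 31.7 CPM without and 27.7, 38.7 and 33.0 CPM with doxycycline, and was at 50.1 and 25.6 CPM in set 4. IGF2BP2 had no reads in any SH2 library.

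RPS12, which encodes a protein of the small ribosomal subunit, fell in every set and was the 1 gene of 10355 tested that passed the threshold of 0.05 after adjustment (percent called 0.00966). RPS12 (chr6:132814441-132817564, plus strand, protein coding) was at 10650, 8425, 8444 and 7816 CPM in untreated sets 1 to 4. In treated cells it was at 1548, 1756, 1730 and 597 CPM. The groups were far apart, with the highest treated library below every untreated one. The log2 fold change was -2.75 ± 0.26, a 6.73-fold lower level, with an adjusted p of 0.00529. Control cells, which differ from untreated SH2 cells in holding almost no IGF2BP1 and more HOXB4 reads, went from 10230 to 12770 CPM in set 2 and from 6677 to 7525 CPM in set 4. What that difference between the cells adds to the comparison was not tested. The SH2 response minus the control response was -3.0 ± 0.41, with an adjusted p of 0.0460, and this was the 1 gene of 11968 called in that comparison (0.00836%); 370 genes (3.09%) had an unadjusted p under 0.05 there. In that comparison 0 genes passed with no block, and 0 without SH2 set 1, 2 or 3. The fall in RPS12 within SH2 cells passed in 9 of 12 alternative analyses. The adjusted p was 0.0937 without the pairing by set, 0.191 without set 1 and 0.224 without set 3, with log2 fold changes of -2.65, -2.76 and -2.92. In those 3 analyses no gene passed by edgeR's quasi-likelihood test, while 448, 780 and 745 genes had an unadjusted p under 0.05.

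A processed pseudogene of RPS12, RP11-864N7.2, was lower in the same 4 sets; it was picked for description after its values were seen. Its log2 fold change was -3.23 ± 0.43 (adjusted p = 0.0606). It had 45, 30, 26 and 50 reads in untreated and 5, 4, 3 and 2 reads in treated sets 1 to 4. Its annotated 399 bases align to the RPS12 coding region (399 bases) without a gap, with 8 mismatches and an identity of 98.0%. The longest identical run was 150 bases, and the RPS12 transcript has 22 bases after its coding region. The last 120 coding bases, which lie next to the poly(A) end that the 3′ tags mark, are shown against the same stretch of the copy, with the 3 bases that differ in capitals (GENCODE v29, GRCh38).
RPS12: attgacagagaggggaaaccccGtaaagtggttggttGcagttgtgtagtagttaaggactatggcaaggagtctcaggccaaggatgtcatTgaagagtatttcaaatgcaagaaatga
RP11-864N7.2: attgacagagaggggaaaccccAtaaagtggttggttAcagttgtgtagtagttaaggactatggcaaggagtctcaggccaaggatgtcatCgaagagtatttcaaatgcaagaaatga
The pseudogene's reads numbered 151 in all untreated libraries against 106367 for RPS12, so they carried little of the RPS12 signal whichever locus they came from. Whether they came from RPS12 itself cannot be told from the counts.

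None of the remaining ribosomal protein genes passed the test with 4 sets or differed 2-fold. Over the other 75 tested, log2 fold changes ran from -0.86 to 0.37, with a median of -0.04. The lowest of them were RPL5, of the large subunit, at -0.86 ± 0.21, and RPS7, of the small subunit, at -0.86 ± 0.19. RPS7 was at 2264, 1392, 1029 and 1744 CPM untreated and 982, 980, 600 and 897 CPM treated, lower in 4 of 4 sets with no overlap (adjusted p = 0.232). Without set 4 both passed, RPS7 with an adjusted p of 0.00114 and RPL5 with 0.0128 by edgeR, and DESeq2 with 4 sets gave 0.0175 and 0.0412. Next in their lists were RPL6 at -0.46 ± 0.18, RPS14 at -0.46 ± 0.21 and RPL23 at -0.46 ± 0.23. FAU, which encodes a small subunit protein fused to a ubiquitin-like one, was the highest at 0.37 ± 0.21. In set 4 the ribosomal protein genes as a group were lower, with median log2 ratios of -0.53 for the small and -0.51 for the large subunit. Their share of the reads counted in genes was 29.2% without and 22.8% with doxycycline there. In sets 1 to 3 it was 33.0%, 28.6% and 21.6% without and 31.9%, 29.6% and 24.1% with doxycycline.

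**Figure D2:**
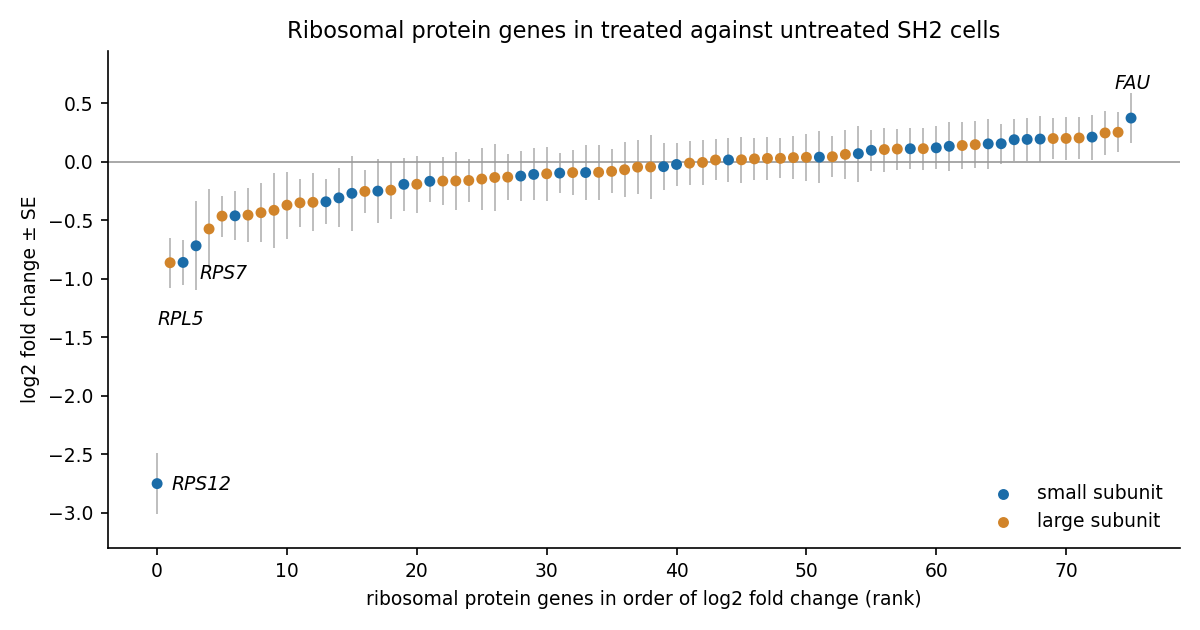
Log2 fold change with its SE (vertical axis) of the 76 ribosomal protein genes tested, in order (horizontal axis, rank), with small subunit genes in blue and large subunit genes in orange. RPS12 stands at -2.75, and the other 75 lie between -0.86 and 0.37.

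Next in order of p came the RPS12 pseudogene and 4 other genes, all with an adjusted p of 0.0606. These 4 were each more than 2-fold lower with no overlap between groups. KARS, lysyl-tRNA synthetase, was at 191, 219, 200 and 202 CPM without and 74.6, 98.7, 93.2 and 83.9 CPM with doxycycline (log2 fold change -1.21 ± 0.17). Its values were close to one another within each group, and treated set 4 lay among the other treated sets. Control cells were at 158 and 156 CPM in set 2 and 167 and 225 CPM in set 4. SRM, spermidine synthase, an enzyme of polyamine synthesis, was at 150, 116, 74.8 and 168 CPM without and 73.7, 50.5, 20.4 and 38.1 CPM with doxycycline (-1.55 ± 0.23). The sets differed in level, yet each treated library was the lower of its pair. EXOSC5, a core subunit of the RNA exosome that trims and degrades RNA from its 3′ end, was at 49.6, 55.5, 41.8 and 60.4 CPM and then 26.0, 13.3, 14.2 and 15.5 CPM (-1.62 ± 0.24). RAB1B, a small GTPase of transport from the endoplasmic reticulum to the Golgi, was at 39.8, 48.9, 39.2 and 46.2 CPM and then 12.6, 17.9, 17.1 and 18.5 CPM (-1.40 ± 0.21). In control cells SRM went from 230 to 169 and from 227 to 240 CPM, EXOSC5 from 54.1 to 52.2 and from 47.7 to 68.4 CPM, and RAB1B from 43.7 to 45.5 and from 40.1 to 37.4 CPM. The difference between the SH2 and control responses passed for none of the 4, with adjusted p-values of 0.724 for KARS and EXOSC5 and 1 for SRM and RAB1B.

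**Figure D3:**
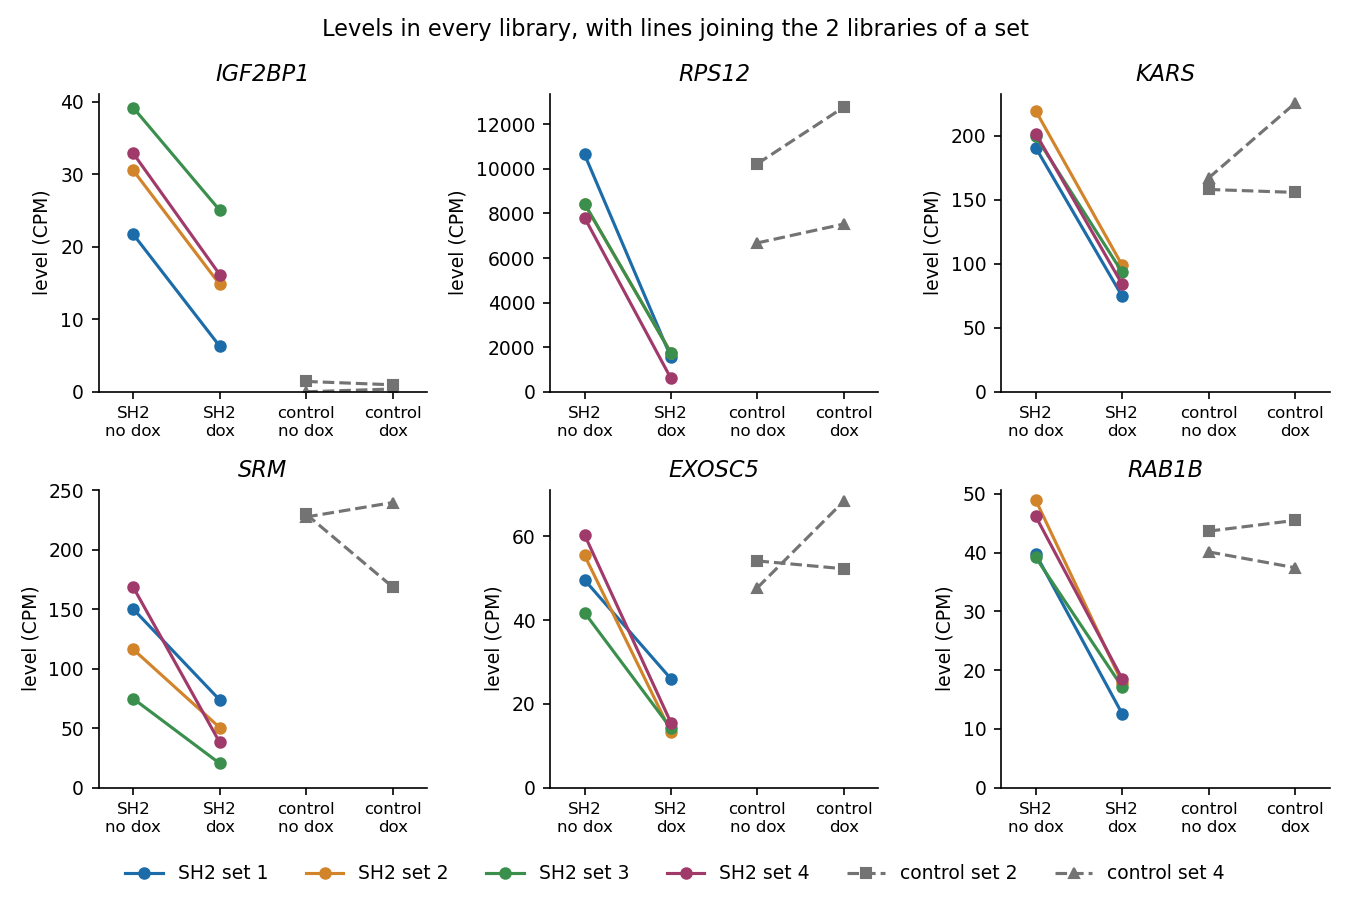
Level in CPM (vertical axes, from 0) of the targeted gene, RPS12 and the 4 genes next by p after its pseudogene in each of the 12 libraries, grouped by cells and doxycycline along the horizontal axis; lines join the libraries of a set, solid for SH2 and dashed for control cells. Every solid line descends, and RPS12 ends between 597 and 1756 CPM in treated SH2 cells.

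Of 3 further genes lower in 4 of 4 sets, HSP90AB1, a constitutive cytosolic chaperone, was at 1776, 1776, 1019 and 1469 CPM untreated and 652, 779, 613 and 688 CPM treated (-1.11 ± 0.19, adjusted p = 0.125). Its groups did not overlap, and control cells went from 1100 to 1021 and from 1115 to 1283 CPM. MT1X, a metallothionein that binds zinc and copper, was at 91.8, 67.0, 43.4 and 50.4 CPM and then 50.3, 26.2, 16.5 and 13.1 CPM (-1.37 ± 0.22, adjusted p = 0.0979). Control set 4 moved likewise, from 53.1 to 29 CPM, and metallothionein genes are close copies of one another, which makes their separate counts uncertain. GRASP, a scaffold protein also called TAMALIN, was at 40.6, 19, 8.10 and 16.3 CPM and then 10.9, 4.94, 3.95 and 2.02 CPM (-1.93 ± 0.33, adjusted p = 0.125). It was lower in treated control cells too, at 11.54 against 15.66 CPM in set 2 and 17.96 against 31.45 CPM in set 4. The treated and untreated SH2 groups overlapped for both MT1X and GRASP.

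Under the same floor on the level and the same sign in 4 of 4 sets, the 8 genes of smallest p in the higher direction held both mitochondrial and cell cycle genes, and none passed the test. MT-ND5, a mitochondrially encoded subunit of respiratory complex I, was at 822, 750, 1227 and 1033 CPM without and 1349, 1575, 2105 and 3323 CPM with doxycycline (1.06 ± 0.21, adjusted p = 0.205), with no overlap. MTATP6P1, a nuclear copy of mitochondrial DNA on chromosome 1, was at 108, 73.0, 228 and 126 CPM and then 224, 292, 486 and 842 CPM (1.72 ± 0.29, adjusted p = 0.125). Its reads may be shared with the mitochondrial genome, and it was also higher in treated control cells of set 2, at 365 against 91.1 CPM. FOXM1, a transcription factor of the mitotic programme, was at 63.1, 39.4, 51.2 and 24.7 CPM and then 112, 88.1, 77.1 and 46.2 CPM (0.87 ± 0.19, adjusted p = 0.217). It was higher in treated control cells too, at 152 against 79.3 CPM in set 2 and 91.3 against 58.2 CPM in set 4. WHSC1, the histone methyltransferase now called NSD2, showed the same in control cells, with 280 against 166 and 114 against 65.4 CPM, beside 0.83 ± 0.19 in SH2 cells (adjusted p = 0.232). TUBA1A, an alpha-tubulin, and NCOA3, a nuclear receptor coactivator, had log2 fold changes of 0.91 ± 0.20 and 0.93 ± 0.20. STK36, a kinase linked to Hedgehog signalling, had 1.22 ± 0.26, and STAG3L5P-PVRIG2P-PILRB, a readthrough transcript that overlaps its parts, had 1.13 ± 0.25. These last 4 had adjusted p-values of 0.217 to 0.232.

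**Figure D4:**
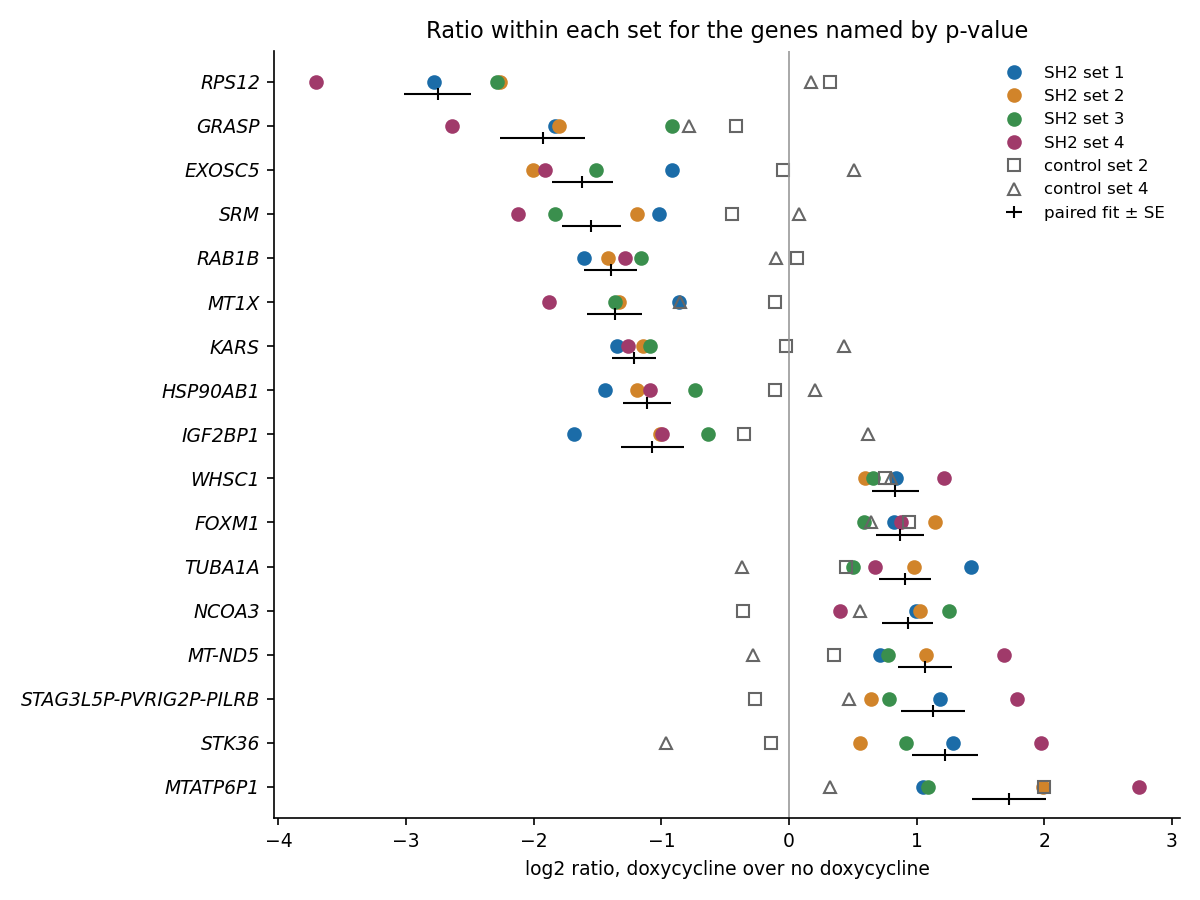
Log2 ratio of doxycycline over no doxycycline (horizontal axis) within each SH2 set (filled circles) and each control set (open symbols) for the 8 genes of smallest p in either direction (mean log2 CPM of at least 3, same sign in 4 of 4 sets) and IGF2BP1; black ticks give the paired fit with its SE. All SH2 sets lie on the same side of 0 for each gene, RPS12 lies farthest to the left at -2.75 in the fit, and the control sets lie beside the SH2 sets for FOXM1 and WHSC1.

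How many genes could be called turned on set 4. With all sets, 580 genes were lower (5.60%) and 540 higher (5.21%) at an unadjusted p under 0.05. A ratio below 0 in 4 of 4 sets was seen for 1083 genes (10.5%) and one above 0 for 1162 (11.2%). The groups did not overlap for 217 genes with lower values (2.10%) and 149 with higher values (1.44%). Without set 4, 182 of 10377 genes were called (1.75%), 111 lower (1.07%) and 71 higher (0.684%), and 63 of the 182 differed at least 2-fold. Of those 182, 39 had the opposite sign in set 4. Among genes whose mean log2 CPM reached 3 and that had the same sign in 4 of 4 sets, the 8 lower and the 8 higher of smallest p, RPS12 among them, were all within the 182. They were chosen from a fit that holds sets 1 to 3, so this overlap is no separate support. Leaving out set 1, 2 or 3 instead gave 0, 1 (RPS12) and 0 genes. DESeq2 with the same pairing called 45 genes with 4 sets, 35 lower (0.338%) and 10 higher (0.0966%), and edgeR with every counted gene kept called 192, 140 lower (0.614%) and 52 higher (0.228%). DESeq2 called 8 of those 8 lower and 6 of the 8 higher genes.

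Genes of ribosome assembly were lower in nearly the whole of their list. These factors build ribosomal subunits from ribosomal RNA and proteins in the nucleolus. Of 47 tested, 43 had a negative log2 fold change, beside 48.3% of all genes, and 28 (59.6%) were lower in 4 of 4 sets, beside 10.5% of all genes. The median was -0.41, against 0.01 for all genes, and was -0.44, -0.37, -0.28 and -0.45 in sets 1 to 4. In control cells it was -0.25 in set 2 and 0.19 in set 4. No member passed the test with 4 sets and the filter on low counts, while 18 had an unadjusted p under 0.05, all lower (edgeR). With 4 sets DESeq2 called 2 of them lower, beside 0.338% of all genes: DDX18 (adjusted p = 0.0153) and BOP1 (adjusted p = 0.033). With no filter on low counts, edgeR called 5 lower, beside 0.614% of all genes. Without set 4, NOP14, DDX18, NCL and BOP1 passed, 4 of 47 (8.51%) beside 1.07% of all genes.

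DDX18, an RNA helicase of ribosome assembly, was at 125, 127, 175 and 134 CPM without and 56.1, 67.2, 121 and 42.4 CPM with doxycycline (-1.05 ± 0.21, adjusted p = 0.217). BOP1, which processes precursor RNA of the large subunit, was at 147, 124, 107 and 129 CPM and then 83.0, 62.3, 53.7 and 76.5 CPM (-0.89 ± 0.18, adjusted p = 0.205). NOP14, of the small subunit processome, was at 73.0, 104, 104 and 120 CPM and then 46.9, 63.0, 61.6 and 60.6 CPM (-0.77 ± 0.18, adjusted p = 0.232). In all 3 genes the treated libraries lay below the untreated ones with no overlap.

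The letters CACGTG, the core E-box read by basic helix-loop-helix factors and the same on both strands, were counted in RefSeq promoters (GRCh38.p14, 250 bases before to 50 after the start). They occurred in 7.40% of 27305 promoters and in 10.8% of the 7636 promoters of genes tested. Of the 39 ribosome assembly genes with a promoter in the table, 14 held them (35.9%), among them 11 of the 25 that were lower in 4 of 4 sets. Over all genes, they occurred in 13.8% of 792 promoters of genes lower in 4 of 4 sets and in 7.10% of 873 of genes higher in 4 of 4 sets. The promoters of NOP14, SRM and EXOSC5 are shown because each gene was lower in 4 of 4 sets and holds the letters, given in capitals.
NOP14, chr4:2963357-2963656, minus strand: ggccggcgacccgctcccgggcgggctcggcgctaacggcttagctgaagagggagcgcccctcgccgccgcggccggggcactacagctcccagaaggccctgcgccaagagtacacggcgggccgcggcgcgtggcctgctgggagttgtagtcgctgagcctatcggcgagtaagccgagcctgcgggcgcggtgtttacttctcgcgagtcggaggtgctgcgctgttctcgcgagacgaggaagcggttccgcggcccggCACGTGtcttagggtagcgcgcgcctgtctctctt
SRM, chr1:11059969-11060268, minus strand: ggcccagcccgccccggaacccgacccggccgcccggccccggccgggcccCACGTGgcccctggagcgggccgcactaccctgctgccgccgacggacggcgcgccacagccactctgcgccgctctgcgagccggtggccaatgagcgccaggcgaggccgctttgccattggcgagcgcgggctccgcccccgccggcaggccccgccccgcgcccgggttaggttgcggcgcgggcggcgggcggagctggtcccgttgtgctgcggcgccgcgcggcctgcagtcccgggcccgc
EXOSC5, chr19:41397310-41397609, minus strand: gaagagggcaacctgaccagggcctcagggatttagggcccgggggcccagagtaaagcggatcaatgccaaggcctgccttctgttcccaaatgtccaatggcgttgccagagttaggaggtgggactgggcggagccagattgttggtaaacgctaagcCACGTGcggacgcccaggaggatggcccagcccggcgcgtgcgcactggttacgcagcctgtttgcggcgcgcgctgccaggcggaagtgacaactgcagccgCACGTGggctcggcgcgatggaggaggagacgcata
The first base of the letters lay 15 bases after the start in NOP14, 199 before it in SRM, and 89 before and 14 after it in EXOSC5. The RPS12, KARS, RAB1B and HSP90AB1 promoters did not hold them. A match of letters is a description of the sequence and does not show binding.

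Other lists around RNA and protein synthesis were lower to a lesser degree. Of 14 genes of the RNA exosome and its cofactors, 13 were negative, with a median of -0.31. Of these 14, 5 (35.7%) were lower in 4 of 4 sets, beside 10.5% of all genes. EXOSC1 and EXOSC3, both cap subunits, had -0.50 ± 0.20 and -0.75 ± 0.31. Of 22 cytosolic aminoacyl-tRNA synthetases and partners, which charge tRNAs with amino acids, 19 were negative, with a median of -0.19. After KARS came EEF1E1, a scaffold protein of the synthetase complex, at -0.89 ± 0.26, and EPRS at -0.54 ± 0.20. Among 40 translation factors, 28 were negative, with a median of -0.15. EIF4G2, an initiation scaffold, was at 387, 313, 235 and 354 CPM untreated and 173, 188, 141 and 121 CPM treated, with no overlap (-1.04 ± 0.20, adjusted p = 0.186). EIF3H and EIF4G1, of initiation factors eIF3 and eIF4F, had -0.90 ± 0.27 and -0.58 ± 0.19. Without set 4, EIF4G2, EIF3G and EIF3H passed, 3 of 40 (7.5% beside 1.07% of all genes). Of 13 polyamine synthesis genes, 8 were negative (median -0.13), and SRM was the 1 member with an unadjusted p under 0.05; EIF5A, the protein modified with spermidine, had -0.53 ± 0.26 and SMS, spermine synthase, 0.34 ± 0.18. Of the genes of smallest p in these lists, KARS, SRM and EXOSC5 passed without set 4. They made up 4.55%, 7.14% and 7.14% of their lists, beside 1.07% of all genes.

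Protein folding genes followed the same direction. Of 25 genes of the unfolded protein response and folding in the endoplasmic reticulum, 24 were negative and the median was -0.29. Of these 25, 9 (36.0%) were lower in 4 of 4 sets, beside 10.5% of all genes. The control cells also had negative medians here, of -0.16 and -0.36. DNAJC3, a co-chaperone that restrains the kinase PERK, was at 53.7, 72.4, 107 and 182 CPM without and 24.7, 35.7, 53 and 41.1 CPM with doxycycline, with no overlap (-1.32 ± 0.23, adjusted p = 0.125). DNAJB11, a co-chaperone of BiP, and MANF, a secreted stress protein, had -0.90 ± 0.20 and -0.67 ± 0.17. All 3 passed without set 4 (3 of 25, 12.0% beside 1.07% of all genes). MANF was lower in treated control cells as well, at 181 against 269 CPM and 339 against 484 CPM. Of 28 cytosolic chaperones, 21 were negative, with a median of -0.19. Of these 28, 10 (35.7%) were lower in 4 of 4 sets, beside 10.5% of all genes. After HSP90AB1, PTGES3, the p23 partner of HSP90, had -0.60 ± 0.17, and CCT2, of the folding ring CCT, had -0.81 ± 0.26. HSP90AB1 and PTGES3 passed without set 4 (2 of 28, 7.14% beside 1.07% of all genes). Of 43 genes of vesicle transport between endoplasmic reticulum and Golgi, 26 were negative (median -0.14). Without set 4, 5 of them passed, all lower: ARCN1, RAB1A, SAR1B, RAB1B and SEC22B (11.6% beside 1.07% of all genes). ARCN1, a coat protein of COPI vesicles, had -1.20 ± 0.26 and SEC22B, a vesicle fusion protein, -0.76 ± 0.17 with 4 sets. In control sets 2 and 4 the medians of this vesicle list were -0.02 and -0.15. The log2 ratios there were 0.27 and -0.91 for ARCN1 and -0.27 and -0.33 for SEC22B. Proteasome genes were mixed, with 23 of 33 negative and a median of -0.05. PSMB6, PSMD14 and PSMD2 had -0.48 ± 0.18, -0.53 ± 0.24 and -0.41 ± 0.19. Without set 4, PSMC4 passed, lower (1 of 33, 3.03% beside 1.07% of all genes).

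**Figure D5:**
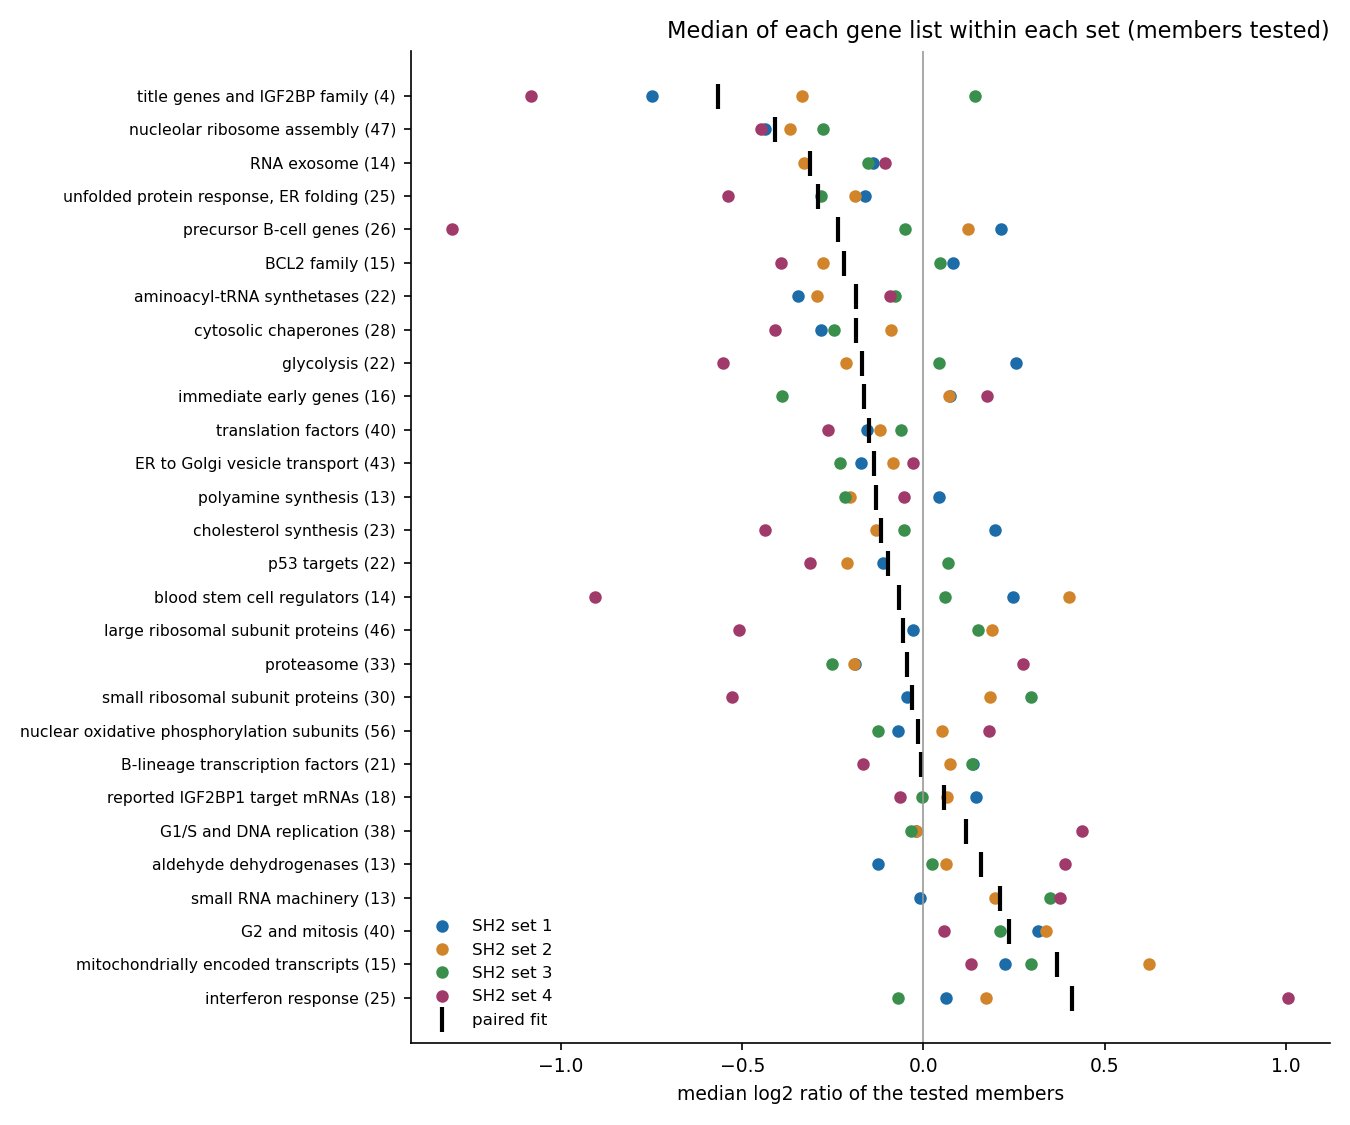
Median log2 ratio of the tested members (horizontal axis) of each gene list (rows, with the number tested) within SH2 sets 1 to 4 (coloured points) and in the paired fit (black bars), ordered by the fit. The ribosome assembly list is negative in each set and has a median of -0.41, while precursor B-cell, stem cell regulator and interferon lists are set apart by set 4.

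Mitochondrially encoded transcripts were the list most often higher. Of 15 tested, 13 were positive, beside 51.7% of all genes, and 9 (60.0%) were higher in 4 of 4 sets, beside 11.2% of all genes. The median was 0.37, and it was 0.23, 0.62, 0.30 and 0.13 in sets 1 to 4 and 0.31 and -0.04 in the control sets. MT-CO1, of complex IV, was at 1034, 848, 1020 and 1148 CPM untreated and 1437, 1852, 2067 and 5738 CPM treated, with no overlap (1.23 ± 0.28, adjusted p = 0.232). Treated control cells were also higher, at 1397 against 916 and 1942 against 1463 CPM. MT-ND4L, of complex I, had 0.80 ± 0.25. Without set 4, MT-ND5, MT-CO1, MT-ND1 and MT-ATP6 passed, 4 of 15 (26.7%) beside 0.684% of all genes. Of the reads counted in genes, these 15 held 5.79%, 4.13%, 8.30% and 7.46% without and 6.18%, 5.75%, 8.46% and 7.43% with doxycycline, nearly level outside set 2. Nuclear genes for oxidative phosphorylation were evenly divided, with 27 of 56 positive and a median of -0.01. ATP5G1 and ATP5H, of ATP synthase, had -0.67 ± 0.20 and -0.64 ± 0.28, and SDHA, of complex II, had 0.47 ± 0.21. Without set 4, ATP5G1 passed, lower (1 of 56, 1.79% beside 1.07% of all genes).

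Genes of G2 and mitosis were mostly higher. Of 40 tested, 32 were positive, with a median of 0.24. Of these 40, 11 (27.5%) were higher in 4 of 4 sets, beside 11.2% of all genes. The control cells had medians of 0.18 and 0.45, so a like difference appeared with doxycycline there. MKI67, the proliferation antigen Ki-67, was at 178, 238, 219 and 54.3 CPM without and 262, 303, 411 and 92.0 CPM with doxycycline (0.65 ± 0.18, adjusted p = 0.300). It was higher in each set, though set 4 was far lower than the others in both states. ASPM, of the spindle pole, had 0.60 ± 0.21. Without set 4, ASPM, FOXM1, NUSAP1, CCNA2, MKI67 and TUBB4B passed, 6 of 40 (15.0%) beside 0.684% of all genes. For FOXM1 and MKI67 the SH2 response exceeded the control response by 0.07 and 0.11 log2 units, each with an adjusted p of 1. Genes of G1/S and DNA replication had 27 of 38 positive and a median of 0.12, but medians of -0.02, -0.02, -0.03 and 0.44 in sets 1 to 4. Within that list E2F2, an S-phase transcription factor, had 0.84 ± 0.21 and UHRF1, which maintains DNA methylation, -0.69 ± 0.21, with GINS2, of the replicative helicase, at -0.53 ± 0.23. E2F2 passed without set 4 (adjusted p = 0.0134, edgeR), 1 of 38 (2.63% beside 0.684% of all genes).

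Interferon-response genes and lineage genes had medians in set 4 far from those of the other sets. Of 25 interferon-response genes, 19 were positive with a median of 0.41, which was 0.06, 0.17 and -0.07 in sets 1 to 3 and 1.01 in set 4. Of the 25, 4 (16.0%) were higher in 4 of 4 sets, beside 11.2% of all genes. IFIT3, an antiviral RNA-binding protein, was at 0.410, 1.48, 5.51 and 10.6 CPM untreated and 6.28, 4.56, 7.91 and 43.8 CPM treated (1.70 ± 0.43, adjusted p = 0.266). It was higher in each set, from low levels. DHX58, a regulator of RNA sensing, was also higher in each set (1.11 ± 0.44), at 13.8, 10.3, 9.22 and 54.9 CPM treated. IFI6, an interferon-induced mitochondrial protein, was at 8.20, 8.30, 9.72 and 9.96 CPM untreated and 16.8, 12.9, 9.22 and 160 CPM treated. Without set 4 the list's median was 0.08. With 4 sets and no filter on low counts, IFI44L (5.82), which the filter had left out, and IFIT3 (1.67) passed by edgeR, higher, beside 0.228% of all genes. Of 26 precursor B-cell genes, 19 were negative, with a median of -0.24 that was 0.21, 0.12 and -0.05 in sets 1 to 3 and -1.30 in set 4. CD72 and CD24, both B-cell surface proteins, had -0.74 ± 0.22 and -0.76 ± 0.24, while CD37, a tetraspanin, had 0.69 ± 0.21. Without set 4 the list's median was 0.08 and IL7R, the interleukin receptor of B-cell precursors, passed, higher, 1 of 26 (3.85% beside 0.684% of all genes). With 4 sets and no filter on low counts, RAG1 (-1.35), VPREB1 (-0.88) and CD24 (-0.78) passed by edgeR, lower, beside 0.614% of all genes. Of 14 blood stem cell regulators, 10 were negative, with set medians of 0.25, 0.40, 0.06 and -0.91; beside MYB, ETV6 and KMT2A had 0.35 ± 0.22 and 0.30 ± 0.19. B-lineage transcription factors were divided, 10 positive and 11 negative (median -0.01), with BCL11A at -0.63 ± 0.22, IRF4 at -0.53 ± 0.20 and FOXO1 at 0.51 ± 0.19.

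No member of the lists that bear on the regulator and the sort passed with 4 sets and the filter on low counts (edgeR). Of 18 tested mRNAs reported as IGF2BP1 targets, 10 were positive and 8 negative, with a median of 0.06 and 1 lower in 4 of 4 sets (5.56% beside 10.5%) and 5 higher in 4 of 4 sets (27.8% beside 11.2%). With 4 sets and no filter on low counts, MYC passed, lower (-1.04, adjusted p = 0.0448, edgeR), the 1 reported target called there. MKI67, which is also in the mitosis list, passed without set 4, higher, 1 of 18 (5.56% beside 0.684% of all genes). H19, a noncoding RNA, had -1.52 ± 0.66 and SRF, a transcription factor, 0.39 ± 0.18. Of 13 aldehyde dehydrogenases, 8 were positive with a median of 0.16. ALDH16A1, a family member of unclear enzymatic activity, was higher in 4 of 4 sets, at 12.7, 16.6, 13.6 and 32.3 CPM untreated and 26.0, 23.5, 26.7 and 54.6 CPM treated (0.81 ± 0.22, adjusted p = 0.279), and ALDH2 had 0.30 ± 0.25. Of 13 genes of the small RNA machinery, which shRNAs use, 10 were positive (median 0.21). Of these 13, 3 (23.1%) were higher in 4 of 4 sets, beside 11.2% of all genes. AGO1, an Argonaute, was at 4.51, 5.93, 6.15 and 9.66 CPM and then 11.3, 11.0, 17.8 and 10.4 CPM, with no overlap (0.94 ± 0.33, adjusted p = 0.391, edgeR). Without set 4 it passed (1.25 ± 0.33, adjusted p = 0.0431, edgeR), 1 of 13 (7.69% beside 0.684% of all genes). TNRC6A, a partner of Argonaute, and DICER1 had 0.56 ± 0.19 and 0.53 ± 0.21.

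No member of the remaining lists passed with 4 sets and the filter on low counts (edgeR). Of 22 p53 targets, 13 were negative (median -0.10), with GADD45A, a DNA damage response gene, at 51.2, 40.3, 57.3 and 33.8 CPM untreated and 29.8, 18.2, 30.6 and 21.2 CPM treated (-0.87 ± 0.20, adjusted p = 0.232). GADD45A passed without set 4 (adjusted p = 0.00868, edgeR), 1 of 22 (4.55% beside 1.07% of all genes). SESN1, a stress sensor, had 1.0 ± 0.36 and C12orf5, the metabolic regulator TIGAR, -1.08 ± 0.42. Of 15 BCL2 family genes, 10 were negative (median -0.22), with BCL2L1, which blocks apoptosis, at -1.0 ± 0.29, BAX, which promotes it, at -0.39 ± 0.20 and MCL1 at 0.33 ± 0.21. The BCL2 set medians were 0.08, -0.28, 0.05 and -0.39, and BCL2L1 passed when no filter on low counts was used (adjusted p = 0.0370). Glycolysis genes had 14 of 22 negative (median -0.17), cholesterol synthesis genes 17 of 23 (median -0.12) and immediate early genes 9 of 16 (median -0.16). For glycolysis the set medians were 0.26, -0.21, 0.04 and -0.55, with no common direction. Its genes of smallest p were ENO2 at 0.72 ± 0.24, HK2 at -0.73 ± 0.28 and ALDOA at -0.40 ± 0.19. INSIG1 and LSS of the cholesterol list had -0.62 ± 0.23 and -0.62 ± 0.32. Among immediate early genes, ZFP36 had -1.48 ± 0.54, DUSP1 -0.85 ± 0.45 and JUN 0.47 ± 0.27. Without set 4, IER2 passed, lower, 1 of the 17 then tested (5.88% beside 1.07% of all genes).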

How the data were processed

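The authors deposited whole-number read counts per gene from HTSeq for each library; the submitters' processing notes also name FastQC, STAR, DESeq2 and hg38 (GRCh38), with versions and annotation not given in the sources used here. They also deposited a table of normalized signal, which is the count table multiplied by 1 factor per library (100% of values whole after division, tolerance 0.01). Alignments that were not unique made up 42.2% to 62.6% of reads per SH2 library and were not counted; 5 summary lines per table were left out.

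The counts of the 8 SH2 libraries entered edgeR 4.0.16 (R 4.3.3): filterByExpr by group (minimum count 10), TMM scaling, and the robust quasi-likelihood test of doxycycline with the set as a block (3 residual degrees of freedom, biological coefficient of variation 0.248). Benjamini-Hochberg adjustment ran over the 10355 genes tested. The SH2 response minus the control response was tested in the same way in all 12 libraries, with each pair of libraries as a block. Each SE is the absolute log2 fold change divided by the square root of the quasi-likelihood F statistic. Its variance is moderated across genes, so it does not measure the spread between pairs. Levels are CPM with TMM scaling, and ratios within a set are of log2 CPM with a prior count of 2. The pairing comes from the design text and the set numbers. Deviations from the group means correlated at 0.19 to 0.693 within a set and at -0.557 to 0.298 between sets. Treated set 2 correlated more with untreated set 1 (0.298) than with untreated set 2 (0.19). With 4 pairs an exact permutation test of 1 gene cannot give a two-sided p below 0.125, so single genes rest on the fit across all genes. The scripts were tested on simulated counts.

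Named genes were those past the threshold or the 8 of smallest p per direction (mean log2 CPM of at least 3, same sign in 4 of 4 sets), the title genes and IGF2BP family, the 3 members of smallest p in each of 28 lists (1 of these is not reported here) and the extreme ribosomal protein genes. The members and lists were chosen with earlier results of these data known. Lists are described by counts and medians without a test. Alternatives were no block, all 12 libraries, DESeq2 1.42.0 (its size factors or its Wald test), no filter, limma 3.58.1 on the deposited signal (pseudocount 1), leaving out each set, and, added after the data were seen, a count test on reads recovered from that table. Reads carry no molecular identifiers, so counting intervals cover counting error only.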

Additional observations from a re-analysis of the deposited data

Results flagged for a closer look

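The RPS12 response was flagged because SH2 and control cells differed in it, by -3.0 log2 units. The other flags mark 1 value of 4 that lay far from the remaining 3; 26 of 321 groups of 4 checked were flagged (8.10%), and chance flags about 1 in 20. Most of these values belong to set 4. In its treated library they were the levels of IFIT3 (43.8 CPM, others 4.56 to 7.91), DHX58 (54.9 CPM, others 9.22 to 13.8), IFI6 (160 CPM, others 9.22 to 16.8), MT-CO1 (5740 CPM, others 1440 to 2070), ALDH16A1 (54.6 CPM, others 23.5 to 26.7), PSMD2 (171 CPM, others 79.4 to 92.2) and ATP5G1 (396 CPM, others 223 to 235), all high, and of HK2 (17.2 CPM, others 50.7 to 55.1) and INSIG1 (29.3 CPM, others 72.9 to 81.0), both low.

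Both libraries of set 4 were high in MANF, at 718 CPM untreated (others 161 to 211) and 427 CPM treated (others 91.3 to 142), and in CD72, at 46.2 CPM (others 19.6 to 21.1) and 28.3 CPM (others 10.5 to 13.4).

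The log2 ratio of set 4 lay far below the others for IGF2BP3 (-0.949, others 0.0176 to 0.0526), EIF3H (-2.08), DNAJC3 (-2.13), CCT2 (-1.89), BCL2L1 (-1.98), BCL11A (-1.18) and IRF4 (-1.01). Its list medians lay above the others for the proteasome (0.274, others -0.253 to -0.19) and for G1/S and DNA replication (0.438, others -0.0342 to -0.0215).

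Outside set 4, NOP14 was low in treated set 1 (46.9 CPM, others 60.6 to 63.0) and AGO1 was high in treated set 3 (17.8 CPM, others 10.4 to 11.3). The log2 ratio of RPS14 was 0.228 in set 3 (others -0.764 to -0.62) and that of JUN 1.44 in set 1 (others 0.0896 to 0.188). What sets these libraries apart was not tested.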

How the results depend on the processing

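The count of genes past the threshold, 1 in the report, was 0 with no replicate block, 2 (both lower) in all 12 libraries with no block and 6 (all lower) in all 12 with the set as a block. It was 45 with DESeq2's Wald test (35 lower, 10 higher) and 192 with no filter on low counts (140 lower, 52 higher). Leaving out each set in turn gave 0 to 182 genes (0 to 111 lower, 0 to 71 higher). The count stayed at 1 with DESeq2's size factors, with limma on the deposited signal and on recovered reads. For the SH2 response minus the control response, 1 gene passed, with 0 without the block and 6 without the filter. Leaving out SH2 set 1, 2 or 3 gave 0 genes each, and leaving out set 4 gave 3. RPS12 ranged from -2.93 to -2.44 over 12 alternatives and IGF2BP1 from -1.24 to -0.91; IGF2BP1 passed without the filter (-1.09, adjusted p = 0.0103) and without set 4 (-1.05, adjusted p = 0.0168). Without replicate 4, MYB and IGF2BP3 changed sign; over the sets left out in turn they ran from -0.90 to 0.0026 and from -0.31 to 0.0351. Of the recomputed list medians, 333 stayed within the spread between sets and 3 did not: RNA exosome without replicate 3 (-0.21), and B-lineage transcription factors (-0.21) and reported IGF2BP1 targets (-0.06) without replicate 1. The causes were not tested. The depth of 2528057 to 3370952 reads per library limits genes of a few CPM.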

Other observations

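Both genes described here lie outside the rule for named genes and were picked after their values were seen. MIR17HG, the host transcript of a microRNA cluster active in proliferating lymphoid cells, was at 21.7, 40.0 and 61.9 CPM in untreated sets 1 to 3 and at 69.5, 146 and 144 CPM in the treated ones. In set 4 it was at 35.3 CPM untreated and 27.0 CPM treated, so its direction was shared by 3 of 4 sets. The log2 fold change was 1.12 ± 0.33 with 4 sets (adjusted p = 0.331, edgeR) and 1.57 without set 4. Control cells held 6.11 to 12.3 CPM, lower than any SH2 library.

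DDN, which encodes dendrin, was at 27.1, 33.8, 16.5 and 31.4 CPM in untreated and 14.2, 8.73, 5.93 and 6.74 CPM in treated sets 1 to 4, with no overlap (-1.63 ± 0.28, adjusted p = 0.125, edgeR). In control cells it was at 36.5 and 45.8 CPM in set 2 and 57.8 and 82.1 CPM in set 4.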
